A study of Rattus norvegicus with 30 samples.

Results

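Long dense runs of CpG sites in the medial prefrontal cortex (mPFC) of young and aged rats were described here. A run was a stretch of at least 40 CpGs with a deposited methylation value in which each site lay less than 1000 bp from the next on chromosomes 1 to 20, in coordinates of the rn5 assembly. Runs that touched any of 4 loci set aside beforehand (11 runs) were left out, which kept 142 of the 4173 autosomal runs of at least 5 sites. These 142 runs held 10378 of the 79774 autosomal CpG sites (13.01%). Apart from those loci, which had been picked out with earlier results of these data known, the rule used positions alone.

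The rats were male Fischer 344, and the tissue was the prelimbic and infralimbic mPFC, taken after training on a set-shifting task that measures cognitive flexibility. Groups were 10 young rats of 5 to 6 months, and aged rats of 17 to 22 months that were either impaired (AI, 9 rats) or unimpaired (AU, 11 rats) on that task. The tissue was not sorted, so each value averages over all cell types of the sample. Each rat was sequenced once by whole genome bisulfite sequencing (WGBS), in which a methylated cytosine is read as cytosine and an unmethylated cytosine as thymine. The methylation ratio of a site in a rat is the share of its reads that kept the cytosine, from 0 to 1. A rat had a value only at sites with at least 5 reads, and a site was deposited where at least 3 rats of each group had one, so the runs are places that many rats covered densely. The read number behind each ratio was not analysed here. Young rats had values at 3379 to 9658 of the sites in the runs, AI rats at 4359 to 9707 and AU rats at 2962 to 9228. The median site of the runs was covered in 21 rats, against 15 for the other autosomal CpGs.

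DNA methylation in mammals falls mostly on cytosines that are followed by guanine (CpG). Most of the genome is poor in CpGs and highly methylated, whereas dense clusters of CpGs at promoters, the CpG islands, are usually free of methylation. Dense CpGs are also found in young transposons, in duplicated genes and in tandem repeats such as satellite DNA, where methylation is usually high and is tied to silencing.

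The runs were spread over 18 chromosomes, with 40 on chromosome 1, 14 on chromosome 9, 13 each on chromosomes 2 and 13, and 10 on chromosome 19. They spanned 224 to 15750 bp (median 2439 bp) and held 40 to 275 sites (median 59). The size limit cut a continuous distribution. The 25 runs of 40 to 43 sites had a mean ratio of 0.740, and the 37 runs of 36 to 39 sites, just outside, had 0.720.

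To see what the runs were, the positions and contexts of all their deposited cytosines (CpG, CHG and CHH, where H is any base but G) were laid over promoter sequences of the rat, from 250 bases before to 50 after each transcription start, on both strands and without gaps. The promoters were those of RefSeq in the GRCr8 assembly, since the sequence of rn5 was not used here. A window was kept as a match when it held at least 100 deposited cytosines and at least 95% of them fell on a cytosine of the same context in the promoter. This rule was set after the data had been seen, and a match describes a shared pattern of cytosines, not the identity of the locus. Windows were compared with the 28928 of 33469 promoters that have at least 4 CpG cytosines. Windows of 23 runs matched, to 13 promoters. The letters CG, which read the same on both strands, occur in 94.53% of all promoters in the table, with a median of 7 per promoter.

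Of the 13 matched promoters, 7 are shown in 3 sets, chosen with their ratios known, to set the sequences of weakly and highly methylated windows side by side. The first set holds promoters whose matched windows were weakly methylated in the mPFC, with window means of 0.0361, 0.0651 and 0.143. Sequences are written 5′ to 3′ on the strand of the gene, with each CG in capitals.
LOC134480519: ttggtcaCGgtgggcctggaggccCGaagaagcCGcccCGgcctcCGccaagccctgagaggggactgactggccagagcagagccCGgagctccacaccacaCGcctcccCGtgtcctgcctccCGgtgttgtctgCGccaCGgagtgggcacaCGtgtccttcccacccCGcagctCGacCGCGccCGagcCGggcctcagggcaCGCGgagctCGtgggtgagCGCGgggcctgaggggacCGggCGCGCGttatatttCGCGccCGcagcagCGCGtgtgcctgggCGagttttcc
LOC134480508: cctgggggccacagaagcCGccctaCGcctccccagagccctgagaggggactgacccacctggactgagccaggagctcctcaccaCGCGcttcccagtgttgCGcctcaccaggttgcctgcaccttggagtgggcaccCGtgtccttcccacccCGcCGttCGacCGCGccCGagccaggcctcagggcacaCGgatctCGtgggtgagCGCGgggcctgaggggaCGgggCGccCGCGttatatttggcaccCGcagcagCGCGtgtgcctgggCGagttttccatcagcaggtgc
Fcgr2a: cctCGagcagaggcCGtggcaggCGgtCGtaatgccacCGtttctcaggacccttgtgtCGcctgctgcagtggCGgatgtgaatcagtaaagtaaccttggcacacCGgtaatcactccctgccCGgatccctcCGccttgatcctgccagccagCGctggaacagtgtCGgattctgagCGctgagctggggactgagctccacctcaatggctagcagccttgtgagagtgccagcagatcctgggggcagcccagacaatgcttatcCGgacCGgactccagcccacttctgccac

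The second set holds a family of near-identical promoters whose pattern recurred in methylated runs on many chromosomes. LOC102551544 and Zmat1l1 share 98.2% of 275 aligned bases.
LOC102551544: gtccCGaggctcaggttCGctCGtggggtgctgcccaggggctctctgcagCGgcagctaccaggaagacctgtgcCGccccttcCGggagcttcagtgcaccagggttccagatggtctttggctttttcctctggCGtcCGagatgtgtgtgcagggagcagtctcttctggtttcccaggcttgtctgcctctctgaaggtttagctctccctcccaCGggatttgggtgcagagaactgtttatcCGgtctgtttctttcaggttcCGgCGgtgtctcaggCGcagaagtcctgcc
Zmat1l1: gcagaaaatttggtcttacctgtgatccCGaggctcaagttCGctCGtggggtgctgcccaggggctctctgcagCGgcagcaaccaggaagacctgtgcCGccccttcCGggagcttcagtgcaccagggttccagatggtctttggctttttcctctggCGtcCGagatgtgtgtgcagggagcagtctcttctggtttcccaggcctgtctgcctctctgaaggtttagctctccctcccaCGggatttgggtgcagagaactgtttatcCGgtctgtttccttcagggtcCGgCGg

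The third set holds promoters with 6 and 7 CGs, near the median of 7 over all promoters. Their windows were methylated, the first of them in the longest run.
LOC134478818: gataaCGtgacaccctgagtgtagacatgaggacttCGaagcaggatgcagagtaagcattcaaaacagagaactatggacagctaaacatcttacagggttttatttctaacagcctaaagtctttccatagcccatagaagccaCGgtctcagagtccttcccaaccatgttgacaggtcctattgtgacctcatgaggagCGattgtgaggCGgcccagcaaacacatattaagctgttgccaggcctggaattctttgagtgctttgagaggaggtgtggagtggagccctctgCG
LOC120097440: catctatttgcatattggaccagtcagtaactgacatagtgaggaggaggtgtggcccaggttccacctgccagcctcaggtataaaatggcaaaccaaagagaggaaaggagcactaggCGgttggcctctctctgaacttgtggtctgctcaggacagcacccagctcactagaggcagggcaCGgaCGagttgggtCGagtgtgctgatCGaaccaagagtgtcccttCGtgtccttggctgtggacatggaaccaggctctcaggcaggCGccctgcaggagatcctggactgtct

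The first set was rich in CGs, with 33 in LOC134480519, 24 in LOC134480508 and 15 in Fcgr2a, against 13 in LOC102551544, 12 in Zmat1l1, 7 in LOC120097440 and 6 in LOC134478818. Roles of the genes with LOC names are not given here. Fcgr2a encodes a receptor for the Fc part of immunoglobulin G that is found on myeloid cells.

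Methylation of the runs spanned nearly the whole scale. The mean ratio over rats ranged from 0.0177 to 0.927 among runs, with a median of 0.715. Of the 142 runs, 12 lay under 0.2, 33 between 0.6 and 0.7, 42 between 0.7 and 0.8 and 29 between 0.8 and 0.9. Rats were much closer to each other than runs were, since the SD between rats of a run had a median of 0.0257.

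Over all their sites the runs were less methylated than the rest of the genome sampled here. The mean ratio per rat was 0.643 ± 0.0123 (SD, n = 30) in the runs and 0.716 ± 0.00415 at the other autosomal CpGs. The difference of -0.0735 ± 0.0134 (SD) had the same sign in 30 of 30 rats. A permutation test that flipped the sign per rat gave p = 1e-05, the smallest that 100000 resamples can give. Restricted to sites covered in all 30 rats, it was -0.0315. The lower mean came with more unmethylated sites, as 10.8% of the sites in the runs had a mean ratio under 0.1, against 3.06% of the other autosomal sites, and 40.7% against 47.1% had one over 0.8.

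Ratios at cytosines outside CpGs went the other way by a small amount. In the runs the CHG ratio per rat was 0.0237 and at other autosomal CHG sites 0.0222, and it was higher in the runs in 30 of 30 rats (permutation p = 1e-05, again the smallest possible). The CHH ratio was 0.0170 in the runs and 0.0164 outside them, higher in 28 of 30 rats (permutation p = 1e-05, also the smallest possible). Non-CG methylation is typical of neurons. The authors filtered unconverted bases before alignment, and the effect of that step on these ratios was not tested. The study states bisulfite conversion only as a lower limit for all rats. How much of these low ratios is unconverted cytosine was not tested either. When only sites with a mean ratio over 0.1 in aged or in young rats were kept, the CHG difference turned to -0.00963 (permutation p = 3e-05) and the CHH difference was 0.00289 (permutation p = 0.107).

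The least methylated run was chr13:94070902-94071125, where 64 CpGs lay within 224 bp. Its run mean ranged from 0.00768 to 0.0300 in aged rats (median 0.0186, n = 16) and from 0.00905 to 0.0267 in young rats (median 0.0145, n = 7). All 64 sites had a mean ratio under 0.1. The groups overlapped throughout, and the difference was smaller than the SD between rats (permutation p = 0.374).

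Several of the other weakly methylated runs lay on chromosome 9. The run chr9:11058776-11059296 held the window that matched LOC134480519, in which 120 of 120 deposited cytosines and 32 of 32 CpG cytosines agreed. The CpG sites of that window had a mean ratio of 0.0361, and the highest site reached 0.114. The ratio of the window was 0.0407 ± 0.0231 in aged rats (SD, n = 18) and 0.0397 ± 0.0146 in young rats (n = 5). Methylation was higher outside the window, as the mean of the whole run was 0.107 and its highest site had 0.825.

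The run chr9:11336204-11337685 matched LOC134480508 at 107 of 112 cytosines and at 37 of 41 CpG cytosines. Its window had a mean ratio of 0.0651, with 0.0650 ± 0.0554 in aged rats (n = 18) and 0.0573 ± 0.0492 in young rats (n = 8). The promoters of LOC134480508 and LOC134480519 share 86.0% of 285 aligned bases, so both windows had the pattern of related sequences. The runs chr9:7321359-7322527 and chr9:11340529-11340793 were also nearly free of methylation, with run means of 0.0436 ± 0.0157 (SD over 22 rats) and 0.0481 ± 0.0277 (24 rats).

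The run chr13:95678179-95681333 matched the promoter of Fcgr2a at 157 of 158 cytosines and at all 23 CpG cytosines. Its window had a ratio of 0.136 ± 0.0405 in aged rats (n = 17) and 0.143 ± 0.0280 in young rats (n = 8). The whole run of 133 sites was lower still, with a mean of 0.0747, and 95 of its sites had a mean under 0.1. In the plot of matched windows, methylation of the Fcgr2a window was highest at its upstream end and lowest between the start site and 100 bp upstream of it.

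**Figure D1:**
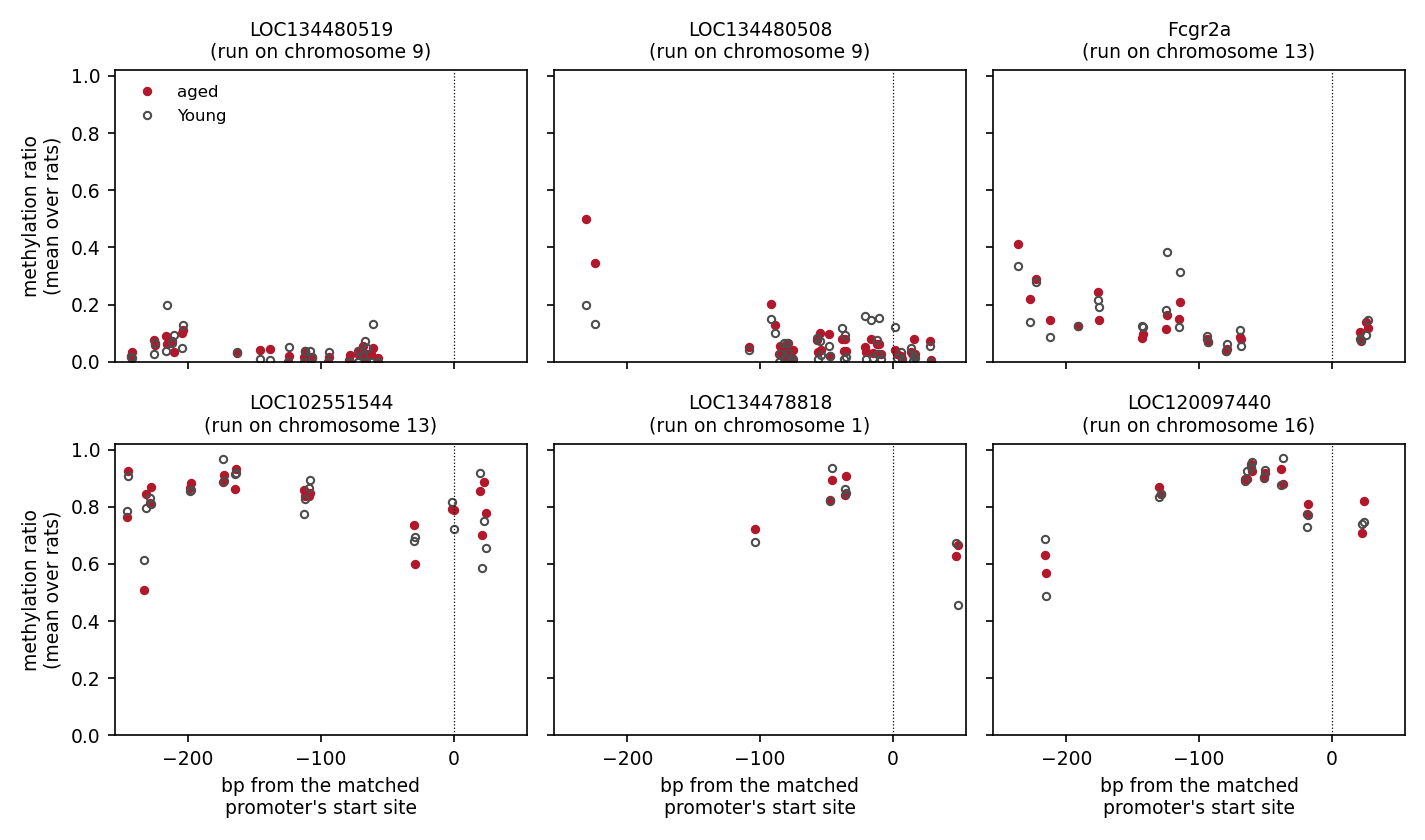
Methylation ratio of each CpG cytosine (vertical axis, mean over rats, filled circles aged and open circles young) against its distance from the start site of the matched promoter in bp (horizontal axis, dotted line at the start site) in 6 runs. The 3 upper windows lie mostly under 0.2 and the 3 lower windows mostly above 0.6, with aged and young rats on top of each other at most sites.

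At the other end of the scale, chr7:117151045-117151868 was the most methylated run. Its 63 sites averaged 0.903 to 0.9497 in aged rats (median 0.925, n = 15) and 0.911 to 0.954 in young rats (median 0.928, n = 5). The run chr2:211291984-211293162 came next, with 131 sites and a mean of 0.903 ± 0.00930 (SD over 29 rats), and 119 of its sites were over 0.8. For chr2:176344988-176351208 the mean was 0.901 ± 0.0328 over 15 rats. Each of these runs had groups that overlapped between aged and young rats.

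A minority of the runs fell into a pair of families by the spacing of their CpGs. Runs were placed in a class when at least 60% of their sites had another site of the run at 367 to 372 bp, or at 600 to 608 bp. These windows were chosen after the spacings had been seen, so the classes are given as a description with no test. There were 17 runs with spacing near 370 bp, 20 with spacing near 605 bp and 105 with neither.

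The runs with spacing near 370 bp held 1713 sites on 6 chromosomes, and 10 of the 17 were on chromosome 1. They were uniformly of intermediate to high methylation, from 0.621 to 0.799 with a median of 0.680. A satellite DNA of the rat is known to be built of units of about 370 bp, but no sequence of these runs was compared with it. Over the 17 runs, the class mean per rat was 0.690 ± 0.0104 in aged rats (SD, n = 19) and 0.690 ± 0.00893 in young rats (n = 7). It was 0.689 ± 0.0127 in AI rats (n = 9) and 0.692 ± 0.00833 in AU rats (n = 10).

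In 3 of these runs methylation was compared between positions in the unit. Folding chr1:187661528-187664644 at 370 bp put 83.9% of the variance among its sites between positions. Its sites at positions 82 to 87 of the unit averaged 0.557 ± 0.0903 (SD over 18 sites), whereas those at 155 to 160 averaged 0.892 ± 0.0428 (15 sites). Age was not tested at single positions. The means were 0.549 in aged and 0.578 in young rats at positions 82 to 87 and 0.896 and 0.886 at positions 155 to 160. They were 0.648 and 0.685 at positions 236 to 240. The same folding gave 56.2% in chr13:38638107-38641332, where positions 78 to 87 averaged 0.623 ± 0.212 (17 sites) and positions 155 to 160 averaged 0.900 ± 0.0353 (15 sites). Both runs were folded from their own first site. In chr12:5494248-5501872 a period of 369 bp accounted for 72.1%, with 0.577 ± 0.0637 at positions 23 to 28 (23 sites) and 0.908 ± 0.0434 at positions 90 to 96 (27 sites). Its lowest sites, at positions 344 to 349, averaged 0.294 ± 0.278 (9 sites).

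**Figure D2:**
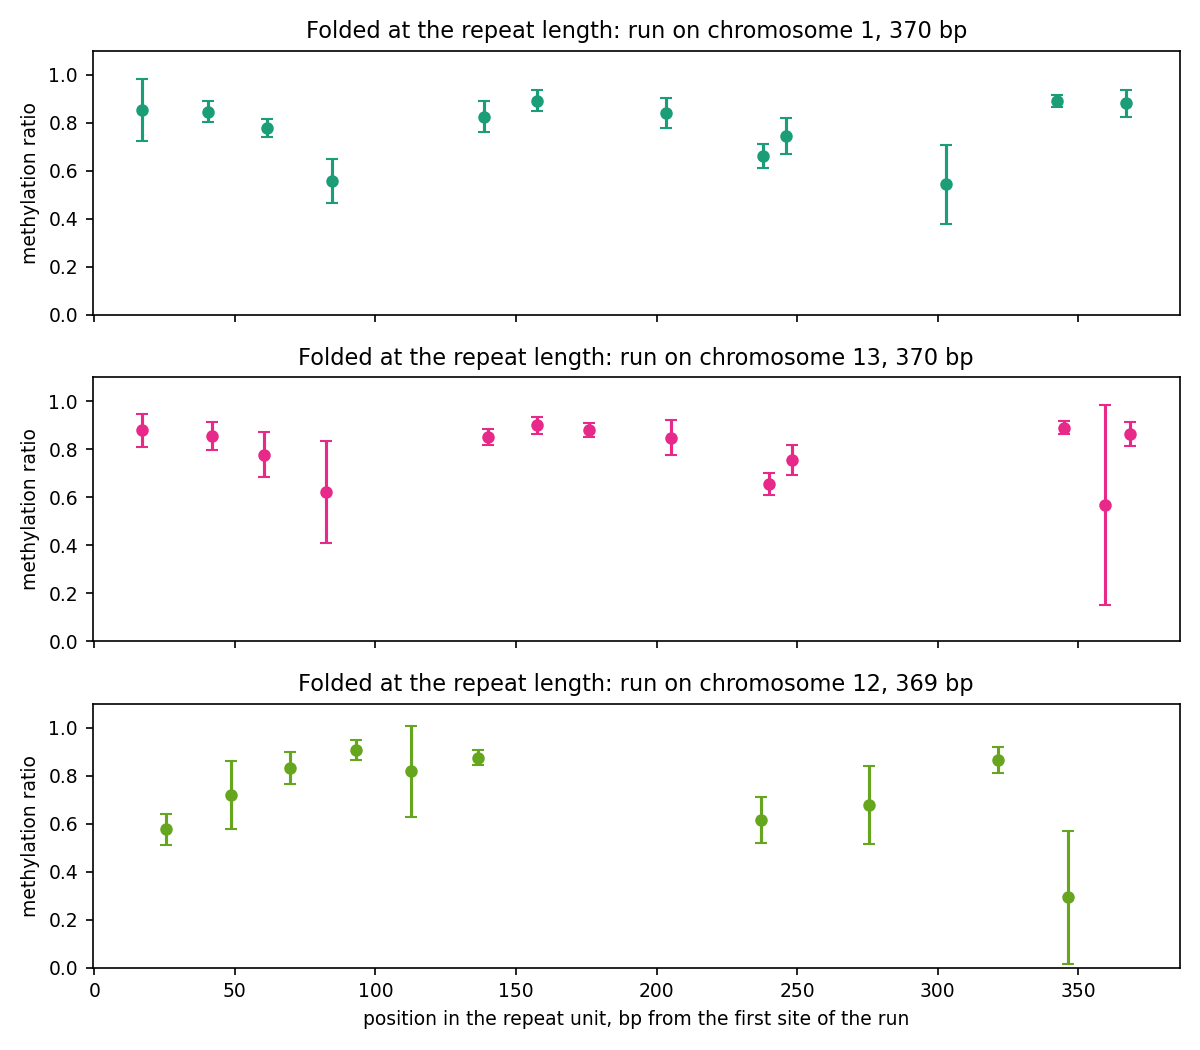
Methylation ratio (vertical axis, mean over rats and then over sites, bars show the SD between sites at that position) against the position in the repeat unit (horizontal axis, bp from the first site of the run) in 3 runs with spacing near 370 bp. On chromosome 1 the sites averaged 0.557 at positions 82 to 87 and 0.892 at positions 155 to 160, whereas some positions spread widely, such as 357 to 362 on chromosome 13 (0.567 ± 0.416, 4 sites).

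Sites 1 unit apart were about as alike as the paired cytosines of a CpG. Which unit of a repeat a read came from was not tested, here or for the folded runs. In the class near 370 bp the median difference in ratio between 2 sites was 0.0559 for sites 1 bp apart, which are mostly the paired cytosines of a CpG on opposite strands, and 0.116 for sites 2 to 10 bp apart. It was lower at 180 to 190 bp, with 0.0780, and fell back further to 0.0587 at 368 to 371 bp, 0.0600 at 737 to 741 bp and 0.0601 at 1106 to 1111 bp. In the 105 other runs it was 0.0412 at 1 bp, 0.0497 at 2 to 10 bp, 0.0815 at 180 to 190 bp and 0.113 at 298 to 307 bp. There too it was lower again at 368 to 371 bp, at 0.0855.

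**Figure D3:**
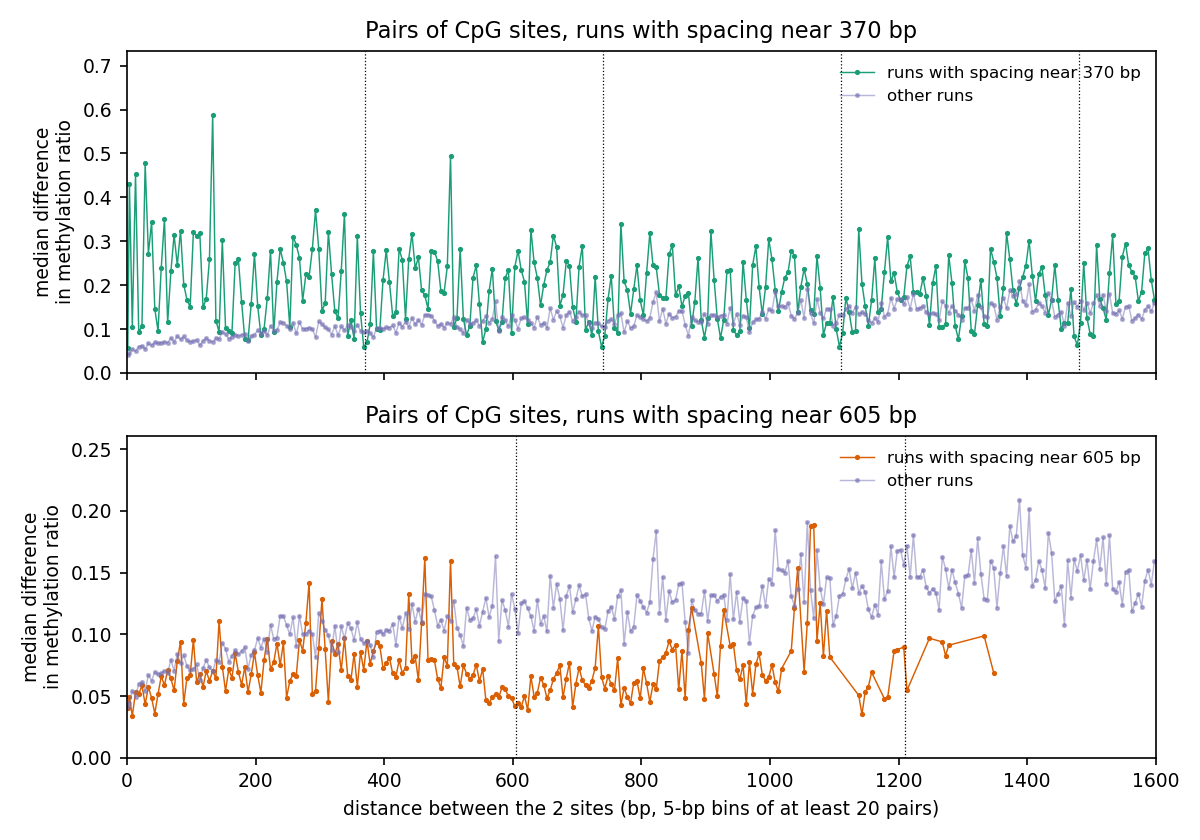
Median absolute difference in methylation ratio between 2 CpG sites of a run (vertical axis, different scales in the panels) against the distance between them in bp (horizontal axis, bins of 5 bp). Dotted lines mark multiples of 370 bp (upper panel) and 605 bp (lower panel), where runs of that spacing had 0.0587 near 370 bp and 0.0416 near 605 bp, against 0.0855 and 0.108 in the other runs. Medians near 605 bp were low over a wider range of distances than near 370 bp.

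The 20 runs with spacing near 605 bp were shorter, with a median span of 1204 bp, and were scattered over 12 chromosomes with 1 to 3 on each. They were highly methylated, from 0.717 to 0.891 with a median of 0.824. The class mean was 0.824 ± 0.00849 in aged rats (SD, n = 20) and 0.819 ± 0.00807 in young rats (n = 10), which differ by less than either SD. It was 0.822 ± 0.0102 in AI rats (n = 9) and 0.826 ± 0.00692 in AU rats (n = 11). Of these runs, 17 were higher and 3 lower in aged rats, by a median of 0.00610, and none passed the test for age (unadjusted permutation p under 0.05). In the class near 370 bp, 6 runs were higher and 11 lower in aged rats, and over all 4148 autosomal runs 2185 were higher. Sites 603 to 607 bp apart differed by a median of 0.0416, beside 0.0405 at 1 bp and 0.108 for the other runs at 603 to 607 bp. The low values were not confined to that spacing, since in bins of 5 bp the median was 0.0412 to 0.0570 from 556 to 620 bp and 0.0452 to 0.142 from 281 to 320 bp.

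Promoters of the LOC102551544 family matched runs with this kind of methylation. LOC102551544 itself was the best match of 7 runs, 6 of them of this class, and Zmat1l1 of 4, of which 3 were of this class. The promoters of LOC120101629 and LOC134479832, which share stretches with them, matched 1 run of the class each. In chr13:51462432-51463620, 164 of 165 cytosines and all 24 CpG cytosines fell on the same context in LOC102551544, and the window had a ratio of 0.819 ± 0.0361 in aged rats (n = 20) and 0.818 ± 0.0393 in young rats (n = 10). The windows of the other runs matched to LOC102551544 averaged 0.783 to 0.853. Windows matched to LOC102551544 held 13 to 24 CpG cytosines, beside 26 in the promoter, so they cover different parts of it. Their means were high at each locus, but single sites were as low as 0.0300, in chr17:23960688-23962559. As the promoters of the family are near-identical, which copy a read came from is uncertain in these runs.

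**Figure D4:**
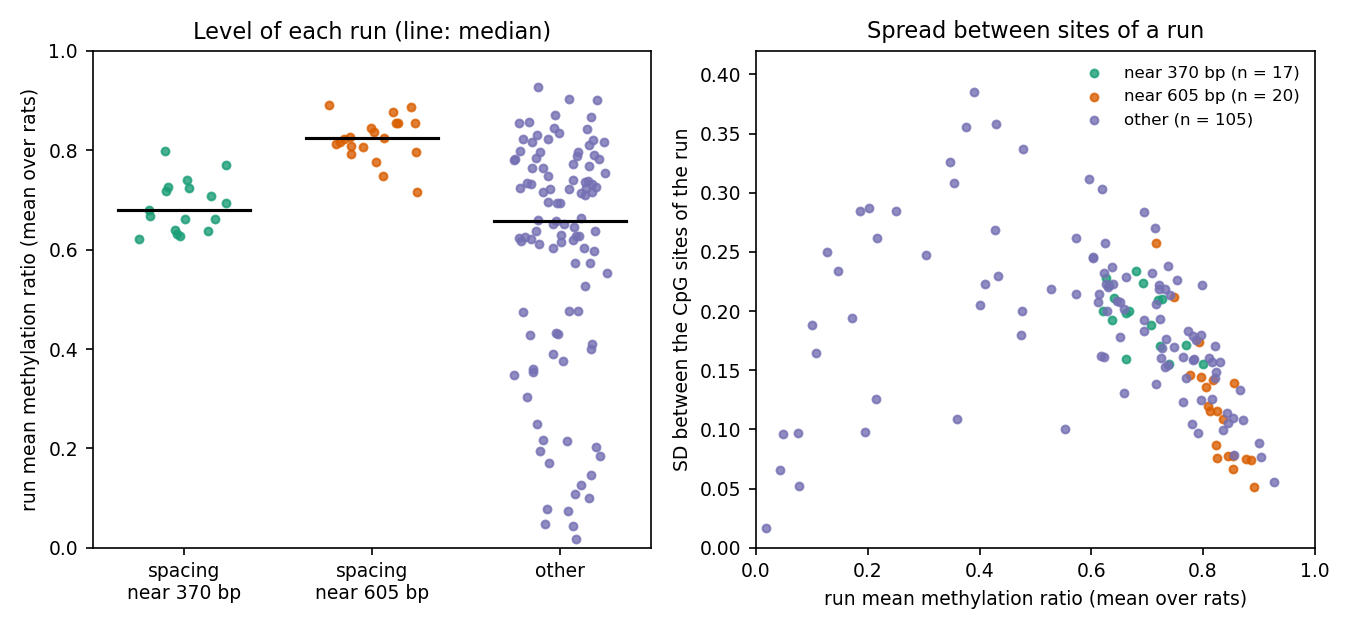
Left, mean methylation ratio over rats of each run (points) by spacing class, with the class median as a line. Right, SD between the CpG sites of a run against its mean ratio. Runs near 605 bp lie highest (median 0.824), runs near 370 bp lie between 0.621 and 0.799, and all 12 runs under 0.2 have neither spacing.

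Some runs of intermediate mean were mixtures of unmethylated and methylated stretches. The widest spread was found in chr9:1391927-1397207, where 57 of 117 sites were under 0.2 and 31 over 0.8. Sites up to the middle of the run averaged 0.0765 and those after it 0.743. Age groups did not differ beyond their spread, with a run mean of 0.393 ± 0.0280 in aged rats (SD, n = 16) and 0.382 ± 0.0456 in young rats (n = 7, permutation p = 0.495). In chr2:175409950-175410607, where 21 of 47 sites were under 0.2 and 12 over 0.8, the low and high sites were not parted in this way, with means of 0.414 before and 0.484 after the middle.

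The matched windows of the third set were methylated as well. In the longest run, chr1:56939588-56955337, a window matched LOC134478818 at 106 of 106 cytosines, although 11 promoters passed the rule there. Its ratio was 0.787 ± 0.0379 in aged rats (n = 18) and 0.782 ± 0.0671 in young rats (n = 9). In chr16:15007079-15010278 a window matched LOC120097440 at 165 of 168 cytosines and 14 of 16 CpG cytosines, although 5 promoters passed the rule. The ratio was 0.835 ± 0.0229 in aged rats (n = 20) and 0.841 ± 0.0234 in young rats (n = 10).

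The study asked whether methylation of the mPFC changes with age, and here this was tested on the mean of each run per rat, for rats with a value at 50% or more of its sites. Over all sites in the runs together, aged rats averaged 0.643 ± 0.0132 (SD, n = 20) and young rats 0.641 ± 0.0107 (n = 10), a difference smaller than the spread between rats (permutation p = 0.670). The CHG and CHH ratios in the runs did not differ beyond the spread either (permutation p = 0.851 and 0.948). Of 141 runs with enough rats, 8 passed an unadjusted permutation p of 0.05, with 5 hypermethylated and 3 hypomethylated in aged rats. This is 5.674% of the runs, beside a background of 5.45% among all autosomal runs of at least 5 sites (2.92% hypermethylated and 2.53% hypomethylated). None of the runs passed the Benjamini-Hochberg adjustment over all autosomal runs, by the permutation test or by limma. At an unadjusted 0.05 limma called 3 (2.13%, against 6.003% of all runs). It draws the variance of each run towards that of all autosomal runs, short ones included. Calls in runs with a small spread can be lost in this way. The background for adjusted calls was 0.0241%. The differences between age groups were small, with a median size of 0.00941.

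The run with the lowest p for age was chr19:5825523-5827202, with 60 CpGs in 1680 bp at a low mean ratio of 0.215. Aged rats had run means between 0.110 and 0.347 (median 0.181, n = 18), and young rats between 0.171 and 0.355 (median 0.270, n = 8). The groups overlapped, and the aged median lay just above the lowest young rat. The aged mean was 0.189 ± 0.0496 and the young mean 0.274 ± 0.0560 (permutation p = 0.00106, adjusted p = 0.440). Of its sites, 11 passed the site test described below at 0.05, and all 11 were hypomethylated in aged rats. Its site with the lowest p was at chr19:5826996, with 0.188 ± 0.0883 in aged rats (n = 20) and 0.275 ± 0.0633 in young rats (n = 10).

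Rat identifiers in the labels fall into 3 number series, called A, B and C here, which are not described and may or may not be a batch. There were 11 aged and 3 young rats in series A, 8 and 3 in series B, and 1 and 4 in series C. The series differed in coverage, with values at 7689 to 9707 sites of the runs in A and at 2962 to 6861 in B. Rats of series C had 3498 to 9228. A run mean averages only the sites that a rat covered. In chr19:5825523-5827202 aged rats were lower than young rats within each series, at 0.167 against 0.227 in A, 0.235 against 0.334 in B and 0.164 (1 rat) against 0.280 in C. The series moved with the level too, since among aged rats series A was lower than series B (exact permutation p = 0.000404 over 11 and 6 rats). Restricted to sites covered in all rats, the age difference was -0.0351 (permutation p = 0.103), against -0.0842 in the main comparison. For rats with 80% or more of the sites it was -0.0620 (permutation p = 0.180).

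A similar picture was seen at chr5:95173460-95173757, where 71 CpGs lay within 298 bp. Run means ranged from 0.188 to 0.552 in aged rats (n = 19) and from 0.318 to 0.535 in young rats (n = 8). The aged mean was 0.337 ± 0.0977 and the young mean 0.412 ± 0.0722 (permutation p = 0.0624), and 10 of its sites passed the site test, all hypomethylated in aged rats. Here the series differed more than the age groups did. Aged rats of series A averaged 0.285 and those of series B 0.436 (exact permutation p = 6.28e-05 over 11 and 7 rats), and within the series the aged mean stayed below the young mean of 0.343 and 0.479. Among aged rats, 13 of 97 runs in the set differed between series A and B at 0.05 (13.4%), against 10.2% of all runs tested. With the series as a term in limma 3 of 141 runs passed an unadjusted 0.05 for age (2.13%, against 5.40% of all runs). As many passed without the term, against 6.003% of all runs.

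The run chr20:42605686-42617301, with 264 sites over 11616 bp, had a higher mean in aged rats by a small margin. Its mean ranged from 0.700 to 0.753 in aged rats (median 0.727, n = 19) and from 0.693 to 0.730 in young rats (median 0.714, n = 10). The means were 0.728 ± 0.0109 and 0.713 ± 0.0126 (permutation p = 0.00217, adjusted p = 0.529). The order was the same in each series, at 0.731 against 0.722 in A, 0.723 against 0.701 in B and 0.735 (1 rat) against 0.715 in C. The call was lost in 4 of 11 alternatives. With the median over sites in place of the mean the difference was 0.00537 (permutation p = 0.347), and for rats with 80% or more of the sites it was 0.00651 (permutation p = 0.170). By limma it was 0.0152 (p = 0.107), and 0.0156 with the series in the model (p = 0.138).

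The next 4 runs had higher means in aged rats, by 0.00887 to 0.0276. The run chr1:56916251-56931671 had 0.609 ± 0.0148 in aged rats (n = 16) and 0.592 ± 0.0143 in young rats (n = 7), with permutation p = 0.0175. For chr4:209833228-209835544 the ratios were 0.577 ± 0.0173 (n = 20) and 0.562 ± 0.0146 (n = 10), with permutation p = 0.0224. The run chr19:37272693-37284132 had 0.734 ± 0.0136 (n = 12) and 0.706 ± 0.0366 (n = 6), with permutation p = 0.0259. In chr2:67731142-67737855, which held the most sites (275), the ratios were 0.819 ± 0.00748 (n = 16) and 0.811 ± 0.0104 (n = 7), with permutation p = 0.0290. Aged and young rats overlapped in all 4 runs, and the adjusted p was 0.835 for each. By limma none of the 4 passed an unadjusted 0.05 (p from 0.111 to 0.432), with the limit for small spreads given above. The sign of 2 of them turned with the choice of sites. The difference in chr2:67731142-67737855 was -0.00114 over sites covered in all rats and -0.000286 when rats with any number of sites were kept. In chr19:37272693-37284132 it was -0.00167 for rats with 80% or more of the sites. In chr1:56916251-56931671 it shrank to 0.00240 with medians over sites (permutation p = 0.818) and to 0.00992 without series C (permutation p = 0.203), and 9 of 11 alternatives lost the call. Leaving out 1 young rat took each of them past 0.05, to p between 0.0530 and 0.111. These were Young 4 for chr1:56916251-56931671, Young 1 or 9 for chr4:209833228-209835544, Young 4, 5 or 8 for chr19:37272693-37284132, and Young 1, 4 or 7 for chr2:67731142-67737855.

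Within series A, the means of aged and young rats (11 and 3 rats) were 0.734 and 0.736 in chr19:37272693-37284132, so the aged mean was not higher there. All but 1 of the 12 aged rats with a value in this run belonged to series A. The low young rats were 1 of series B (0.683) and 2 of series C (mean 0.673). With the series in the limma model the difference was 0.0117 (p = 0.533), and without series C it was 0.0114 (permutation p = 0.362). In the other 3 runs the aged mean was higher within series A as well, at 0.612 against 0.603 in chr1:56916251-56931671, 0.575 against 0.555 in chr4:209833228-209835544 and 0.820 against 0.812 in chr2:67731142-67737855.

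Of the other hypomethylated runs, chr7:100110444-100115745 had values in few rats. Its means were 0.276, 0.305, 0.342, 0.329 and 0.309 in 5 aged rats and 0.407, 0.331 and 0.481 in 3 young rats (exact permutation p = 0.0357). The lowest young rat lay below the highest aged rat. The run chr1:100133480-100139447 had 0.728 ± 0.0139 in aged rats (n = 19) and 0.740 ± 0.00849 in young rats (n = 8), with permutation p = 0.0419.

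**Figure D5:**
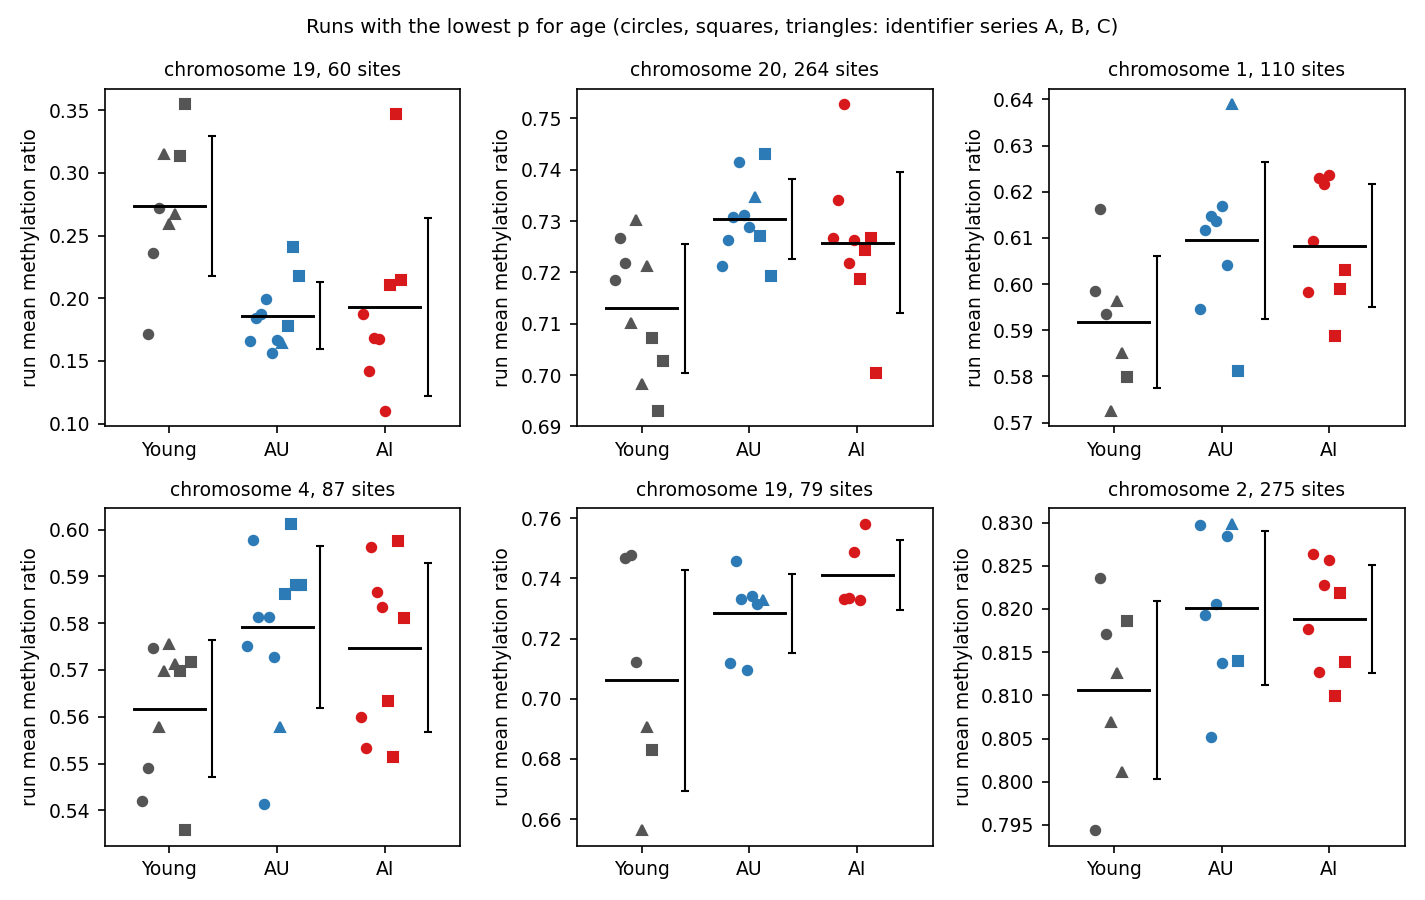
Run mean methylation ratio per rat (vertical axis, a scale of its own in each panel that does not start at 0) in young, AU and AI rats for the 6 runs with the lowest p for age, from the calls of aged against young rats. Lines are group means, bars show the SD, and circles, squares and triangles are rats of identifier series A, B and C. On chromosome 19 (60 sites) the young mean of 0.274 lies above both aged groups, and in the other panels aged and young means differ by 0.0276 or less.

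Single CpG sites followed the background too. The study's test per site at an unadjusted 0.05, which is approximate where few rats have a value, passed 653 of 10378 sites in the runs, 295 hypermethylated and 358 hypomethylated in aged rats. This is 6.292% of the sites, beside 6.13% of all CpG sites of the table (2.41% hypermethylated and 3.72% hypomethylated). With limma 661 sites passed, 6.37% beside 6.64% of all CpG sites. The share was alike among the spacing classes, with 6.54% near 370 bp, 6.71% near 605 bp and 6.18% in the others. The share of a run's sites that passed ranged from 0 to 18.3% with a median of 6.08%, and the highest share was that of chr19:5825523-5827202.

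After adjustment 11 sites in the runs passed for age, 0.106% of them, beside a background of 0.069%. With limma 15 passed, and no background was computed for that count. Their values looked extreme. At chr4:142116432 the age calls gave a ratio of 1 in all 4 aged rats with a value and 0.00294 ± 0.00930 in 10 young rats (SD). The calls made for AI against AU rats hold values of the same aged rats at this site, and there 20 aged rats averaged 0.00335 with a highest value of 0.0303. The ratios of the same aged rats thus depended on the set of calls at this site. The same was found at 9 of the 11 sites, among them chr9:7321433 (0.962 over 13 aged rats in one set, 0.441 over 15 in the other) and chr9:11340689 (0.912 over 10 and 0.380 over 15). For chr9:7412965 the other set held no value.

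The only site of the 11 with the same aged values in both sets was chr9:11337566, in the run that matched LOC134480508. Its ratio was 0.0705 ± 0.0987 in 14 aged rats, with values from 0 to 0.300, and 0.914 ± 0.128 in 5 young rats, with values from 0.714 to 1, so that the groups did not overlap. The young rats have values in 1 set alone, so their ratios could not be compared between sets. Unequal values between the sets were more common inside the runs, at 89 of 9557 sites in both sets (0.931%), than at the other autosomal CpGs, at 98 of 51407 (0.191%). Among the 9468 sites with equal values, 1 for age and none for impairment passed the adjustment of the study's test, while 601 (6.35%) passed for age and 372 (3.93%) for impairment at an unadjusted 0.05. Of all CpG sites with equal values, 6.82% passed for age and 4.24% for impairment.

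Impairment was compared between AI and AU rats at the same positions in the second set of calls. Scores of the task were not among the labels, so groups took their place. Over all sites in the runs AI rats averaged 0.642 ± 0.0109 (SD, n = 9) and AU rats 0.646 ± 0.0127 (n = 11), which did not differ beyond the spread (exact permutation p = 0.535). For CHG and CHH sites in the runs the exact permutation p was 0.996 and 0.575. Of 142 runs, 4 passed an unadjusted exact permutation p of 0.05, 1 higher and 3 lower in AI rats, which is 2.817% beside a background of 4.67%. None passed the adjustment over all autosomal runs by the permutation test or by limma, and the background for adjusted calls was 0%. At an unadjusted 0.05 limma called 1 run (0.704%, against 5.30% of all runs).

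The lowest p for impairment was found at chr9:11058776-11059296, the run that matched LOC134480519. AI rats ranged from 0.0895 to 0.174 (median 0.119, n = 9) and AU rats from 0.0498 to 0.116 (median 0.0909, n = 9). The means were 0.123 ± 0.0296 and 0.0874 ± 0.0188 (exact permutation p = 0.00679, adjusted p = 1), and the groups overlapped between 0.0895 and 0.116. The difference ranged from 0.0155 to 0.0607 under other settings, and the permutation p reached 0.256 when only sites covered in all aged rats were used. Of 11 alternatives, 6 lost the call. By limma with the series in the model the difference was 0.0330 (p = 0.0607). Without series A it was 0.0607 (exact permutation p = 0.0571) and without series B 0.0167 (exact permutation p = 0.112).

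The 3 runs with lower means in AI rats differed by little. The run chr3:105341705-105342903, of the class near 605 bp and matched to LOC102551544, had 0.795 ± 0.0220 in AI rats (n = 8) and 0.828 ± 0.0345 in AU rats (n = 11), with exact permutation p = 0.0327. In chr9:7455347-7457510 the ratios were 0.101 ± 0.0266 (n = 7) and 0.132 ± 0.0250 (n = 8), with exact permutation p = 0.0406. For chr1:187677301-187678268, of the class near 370 bp, they were 0.663 ± 0.0177 (n = 8) and 0.679 ± 0.0119 (n = 8), with exact permutation p = 0.0435. AI and AU rats overlapped in each of these runs. The difference in chr9:7455347-7457510 turned to 0.000700 with site-centred means and to 0 with medians over sites, and that in chr1:187677301-187678268 to 0.00141 over sites covered in all rats. Leaving out a single rat took all 3 past 0.05, for 9, 6 and 10 of the rats in the order given, with p up to 0.0673, 0.0839 and 0.0844.

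At single sites, 384 of 9557 passed the same test for impairment at an unadjusted 0.05, 183 higher and 201 lower in AI rats, 4.018% beside a background of 4.1%, and 462 passed with limma, 4.83% beside 5.51% of all CpG sites. After adjustment 6 sites passed, 0.0628% of them, beside a background of 0.00865%. As many passed with limma, for which no background was computed. At all 6 sites of the study's test the aged rats had other values in the calls for age, so each depended on the set of calls. At chr1:54908355, for example, 9 AI rats averaged 0.110 and 8 AU rats 0.969, whereas 15 aged rats averaged 0.978 in the calls for age.

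Sites that the study lists by gene, for age or for task performance, fell into some of the runs. Both lists hold only those sites whose methylation was also correlated with RNA of the gene in the study. The sites were picked by the study in these same rats, so their direction is not independent evidence. RNA was not analysed here. The list for age had 11 sites in 8 runs, 7 hypermethylated and 4 hypomethylated in aged rats. At Thsd7b, which encodes a protein with thrombospondin repeats, 3 sites of chr13:51462432-51463620 were hypermethylated, with 0.772, 0.962 and 0.889 in aged rats and 0.583, 0.815 and 0.736 in young rats. The mean of that run differed by less than the spread between rats, at 0.798 ± 0.0249 in aged rats (n = 20) and 0.793 ± 0.0253 in young rats (n = 10), with permutation p = 0.549.

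At Ccdc18 the listed site chr14:2532285 had 0.948 ± 0.0930 in aged rats (n = 14) and 0.843 ± 0.0304 in young rats (n = 7). At Sbf2, a pseudophosphatase of the myotubularin family, chr1:182276873 had 0.806 ± 0.146 (n = 18) and 0.689 ± 0.0844 (n = 9). At Ssr3, a subunit of the translocon-associated protein complex of the endoplasmic reticulum, chr2:175410131 was hypomethylated with 0.745 ± 0.147 (n = 17) and 0.848 ± 0.0779 (n = 6). The listed site of 5S_rRNA, an RNA of the large ribosomal subunit, had 0.857 ± 0.129 in aged rats (n = 8) and 1 in all 3 young rats at chr12:1491162. None of these sites passed the adjustment over all CpG sites.

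LOC100360856 was listed at sites of a pair of weakly methylated runs of chromosome 9. At chr9:7412833, 3 aged rats all had 1 and 4 young rats averaged 0.202 ± 0.162. At chr9:7456587 the ratios were 0.452 ± 0.185 (n = 6) and 0.190 ± 0.0287 (n = 3), and at chr9:7414403 they were 0.195 ± 0.105 (n = 8) and 0.325 ± 0.0873 (n = 5). The first 2 of these sites held no value in the other set of calls.

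The list for task performance had 17 sites in 13 runs, of which 10 were higher and 7 lower in AI rats by mean, and 2 passed the test between AI and AU rats at an unadjusted 0.05. Both were listed for AABR06096719.1, at chr19:300594 with 0.677 in AI and 0.481 in AU rats, and at chr19:314425 with 0.434 and 0.923. At the second site the aged rats had other values in the calls for age. At Hecw1, a ubiquitin ligase, chr17:51311506 had 0.760 in AI and 0.853 in AU rats, and at Tbc1d5, which regulates Rab proteins in endosomal sorting, chr9:1394216 had 0.830 and 0.747. Neither passed the test.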

How the data were processed

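WGBS ratios of CpG, CHG and CHH sites were analysed in 30 rats. Per the labels and the study's methods, the authors converted DNA with bisulfite, prepared Illumina TruSeq DNA Methylation libraries, trimmed reads with Trimmomatic, checked them with FastQC, filtered unconverted bases with cscall, aligned to rn5 (Rnor_5.0) with BSMAP and called sites with cscall in DMAP2. Tool versions are not given in the sources used here. The deposited values are a fraction per rat and cytosine, without scaling between rats, in one set of calls for aged against young and another for AI against AU. The tables used here give ratios without read counts, so no interval or count model could be used.

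Run means per rat (unweighted, rats with at least 50% of the sites, at least 3 rats per group) were compared with permutation tests, 2-sided, exact up to 200000 arrangements and otherwise with 100000 resamples. Adjustment was by Benjamini-Hochberg over all autosomal runs of at least 5 sites. Sites were compared with Welch's test, as in the study, adjusted over all CpG sites of the table. limma 3.58.1 in R 4.3.3 was an alternative, beside other run definitions, site filters and leaving out rats or identifier series. Figures were drawn with matplotlib 3.10.9. Computations ran in Python 3.11.15 (scipy 1.17.1, numpy 2.4.6, pandas 2.3.3), and the procedures were tested on simulated data. Runs named in full were the 6 with most sites, the 3 lowest and 3 highest in mean, the 6 and 4 with the lowest p for age and impairment, and those with a site of the study's lists, with the site of lowest p for age in each. Other runs, sites and promoter matches were chosen after their values were seen. Members and lists were chosen with earlier results of these data known. Matched promoters come from RefSeq (GRCr8), folded runs were the 2 with the largest share of partnered sites and the one with most sites, and no coordinates were converted. Each rat gave 1 library, so rats are the replicates.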

Additional observations from a re-analysis of the deposited data

Results flagged for a closer look

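For each of the 33 runs named by rule, the rats of a group were checked for 1 rat that stood far from the others, in groups of 4 to 10 rats. Of 89 groups tested, 7 had such a rat, and chance gives this in about 1 in 20 groups. In chr9:7321359-7322527, which was nearly unmethylated, rat Young 8 had 0.0807 where the other young rats had 0.0190 to 0.0355. In the same run rat AU 9 had 0.0749 against 0.0292 to 0.0470 in the other AU rats. In chr19:37272693-37284132 rat AI 8 had 0.679 against 0.730 to 0.750. In chr19:308417-314548 rat AU 10 had 0.813 against 0.740 to 0.774. In chr1:187677301-187678268 rat Young 4 had 0.613 against 0.660 to 0.696. In chr1:56939588-56955337 rat AU 11 had 0.694 against 0.724 to 0.754. In chr17:51311415-51312338 rat Young 1 had 0.843 against 0.872 to 0.903.

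The age difference of chr1:182276554-182277551 differed between the identifier series. The difference, aged minus young, was 0.0274 in series A (11 and 3 rats) and -0.0775 in series B (4 and 2 rats). The difference of 0.105 between the series had a permutation p of 0.00415 and an adjusted p of 0.0498 over the 12 runs that could be tested. It rests on 2 young rats of series B.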

How the results depend on the processing

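No run passed the adjusted threshold for age or impairment under any alternative. The 8 of 141 runs past an unadjusted 0.05 for age (5.67%, against 5.45% of all runs) became 14 of 141 (9.93%, against 5.98%) with site-centred means, 14 of 249 (5.62%, against 5.45%) for runs of at least 30 sites, 3 of 141 (2.13%) by limma without and with identifier series (against 6.003% and 5.40%) and 4 of 105 (3.81%, against 4.19%) without series A. The 4 of 142 runs for impairment (2.82%, against 4.67%) became 9 of 142 (6.34%, against 4.65%) site-centred, 8 of 250 (3.20%) at 30 sites or more and 0 of 71 at 60 or more (both against 4.67%), 1 of 142 (0.704%) by limma without and with series (against 5.30% and 5.52%), 2 of 66 (3.03%, against 2.94%) without series A and 7 of 142 (4.93%, against 4.65%) without series C. Site calls for age fell to 233 (at least 8 rats per group), 80 (sites with a value in every rat) and 274 (without series A), or 6.29%, 6.10% and 4.34% of the sites tested in the runs against 7.60%, 9.60% and 4.58% of all CpG sites, and adjusted calls to 5 (at least 5 rats), 4 (at least 8), 1 (every rat), 1 (same ratios in both sets, an alternative added after the data were seen) and 2 (without series A). For impairment site calls fell to 185, 67 and 125 in the same order (4.48%, 4.17% and 3.04%, against 4.37%, 4.01% and 3.74% of all sites), and adjusted calls to 3, 1, 0, 0 and 0. Fewer sites were tested in these settings, and the share of all CpG sites past the adjustment was not computed in them. At sites over 0.1 in at least 1 group the CHG difference in the runs, aged minus young, was -0.0138 (permutation p = 0.00567), which is no test of age because a site could enter through the group where it was high, the difference in CHG between runs and other sites turned to -0.00963, and that in CHH was 0.00289 (p = 0.107). Age differences that differed between series A and B at 0.05 were found in 1 of 12 runs, and in 2 of 24 over sites with a value in every rat. Signs turned for chr2:67731142-67737855, to -0.00114 (sites with a value in every rat) and -0.000286 (any number of sites per rat), and for chr19:37272693-37284132, to -0.00167 (80% of sites per rat). They also turned for chr9:7455347-7457510, to 0.000700 (site-centred), and chr1:187677301-187678268, to 0.00141 (every rat). With medians the difference of chr9:7455347-7457510 was 0. The cause was not tested. Leaving out each rat in turn, age differences kept their sign, from -0.0988 to -0.0727 in chr19:5825523-5827202 and from 0.0130 to 0.0172 in chr20:42605686-42617301, and the impairment difference of chr9:11058776-11059296 ranged from 0.0289 to 0.0395. The level of the runs against other CpGs kept its sign and call throughout. No paired analysis was possible because each rat belongs to a single group and rat numbers were given in accession order. The read number behind each ratio was not analysed here.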

Other observations

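Among single runs, CHG methylation was highest in chr3:140448537-140452040, with a mean ratio of 0.0585 over 49 sites, and lowest in chr14:94163055-94163635, with 0.00824 over 50 sites. The CHH ratio was highest in chr2:67669149-67670569, with 0.0373 over 240 sites, and lowest in the same run of chromosome 14, with 0.00626 over 84 sites. The run with the second largest share of sites past the test for age was chr14:94154460-94160348, a neighbour of that run, with 7 of 47 sites, 2 higher and 5 lower in aged rats, while its run mean gave a permutation p of 0.361. In chr2:176344988-176351208 all 9 sites that passed were lower in aged rats, and its run mean was 0.889 ± 0.0271 in aged rats (SD, n = 9) and 0.919 ± 0.0350 in young rats (n = 6), with an exact permutation p of 0.0925.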
